A study of Mus musculus with 24 samples.

Results

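The Bex (brain expressed X-linked) and Tceal (transcription elongation factor A like) genes form a family of small genes on the mouse X chromosome. The 10 members described here, Bex1, Bex2, Bex3, Tceal1, Tceal3, Tceal5, Tceal6, Tceal7, Tceal8 and Tceal9, were taken by symbol from 2 deposited expression tables that each list 46078 genes, and every member had 1 row in each table. They were chosen by their fold changes in these same tables, where an earlier reading had them rising as a group after loss of Chd4, the ATPase of the NuRD chromatin remodelling complex. Their fold changes between the groups are therefore a description and carry no test. The values below show a divided family: 8 of the 10 members had a fold change above 0 in sorted cells and all 10 in culture. The median log2 fold change of all genes tested was -0.02 in sorted cells and -0.01 in culture. Bex3 and Tceal9, which are among the most abundant members, differed little in either setting, though in sorted cells each Tceal9 value after Chd4 loss lay below each control value.

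RNA-seq was done on 16 mouse libraries in 4 groups of 4, all from C57BL/6 mice 2 to 4 months old. In culture, primary myoblasts grown from satellite cells of uninjured muscle with floxed Chd4 alleles (Chd4fl/fl) received an adenovirus coding for Cre (AdCRE) or for GFP (AdGFP) and were collected 72 h later. Since GFP virus carries no Cre, effects of Cre itself and of Chd4 loss cannot be told apart there. In vivo, satellite cells, the stem cells of skeletal muscle, were sorted 3 days after cardiotoxin injury as SCA1-, CD45-, alpha7-integrin+ and CD34+ cells in Chd4dPax7ER mice and in their Chd4fl/fl controls. Chd4dPax7ER is taken from its name to be the floxed allele deleted through a Pax7-driven inducible Cre, active in satellite cells and the cells they give rise to. The sources used here do not give the Cre status and drug treatment of the Chd4fl/fl mice. The labels do not tie the 4 libraries of a group to separate mice or cultures, and the p-values below measure only the spread between these libraries. 8 ATAC-seq samples of the series were not analysed here.

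Bex and Tceal genes arose together in placental mammals and lie next to each other on the X chromosome, mostly as small transcripts that encode short, largely unstructured proteins. The Tceal proteins are named for their likeness to TFIIS, a factor that restarts stalled RNA polymerase II. Bex proteins are best known from neurons and progenitor cells, where they have been tied to neurotrophin signalling, the cell cycle and apoptosis. In skeletal muscle, Bex1 is known to be induced during regeneration, and Tceal7 is a target of the myogenic factors that restrains myoblast growth and promotes differentiation.

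Levels are RPKM, reads scaled to gene length and to the mapped reads of the library, so they can be set beside each other between genes. Chd4 itself ran from 15.8 to 23.9 RPKM in the AdCRE libraries, against 67.8 to 85.5 in the AdGFP libraries, and from 48.7 to 64.1 RPKM in Chd4dPax7ER cells, against 119 to 135 in Chd4fl/fl cells. These ranges did not overlap in either setting. RPKM summed to between 288659 and 326812 per library in culture and between 286802 and 306114 in vivo. Read totals are not given by RPKM, but the steps of low values put the reads of the cultured libraries within 1.64 times of each other, and the depth of the sorted libraries is unknown. In bulk RNA, fewer cells of a type and less RNA per cell cannot be told apart.

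In sorted cells Bex2, Tceal3, Tceal5 and Tceal6, 4 of the 6 members that stood low in Chd4fl/fl cells, were several-fold higher in Chd4dPax7ER cells. Of the abundant members, Bex1 was also well above its Chd4fl/fl level, and Bex3, Tceal8 and Tceal9 differed less. Fold changes are log2 differences of RPKM + 0.5, Chd4dPax7ER minus Chd4fl/fl, with the SE of a limma fit over all genes. Bex2 had the largest one among the members. It measured 9.78, 10.7, 8.38 and 12.7 RPKM in Chd4dPax7ER cells, against 0.17, 1.23, 2.03 and 0.97 RPKM in Chd4fl/fl cells, a log2 fold change of 2.90 (SE 0.35). The lowest Chd4dPax7ER library was more than 4 times the highest Chd4fl/fl library. Bex2 is known from cell lines as a regulator of apoptosis and the cell cycle.

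Bex1, a calmodulin-binding protein known for its part in muscle regeneration, was the member that changed most among the abundant ones. Its level was 48.2, 57.4, 49.0 and 42.9 RPKM in Chd4dPax7ER cells, against 14.1, 21.5, 16.5 and 18.3 RPKM in Chd4fl/fl cells. The groups were far apart, with a log2 fold change of 1.47 (SE 0.13). By its mean Bex1 moved past Bex3 and Tceal8 in the order of the members, though the library ranges of Bex1 and Bex3 overlapped in Chd4dPax7ER cells. Bex3, also called NADE, is an adaptor of the p75 neurotrophin receptor. It did not follow Bex1 and Bex2: it was at 46.6, 40.2, 48.3 and 37.1 RPKM in Chd4dPax7ER cells, against 45.9, 55.8, 50.2 and 44.9 RPKM in Chd4fl/fl cells. Those ranges overlapped, and the log2 fold change was -0.19 (SE 0.10).

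**Figure D1:**
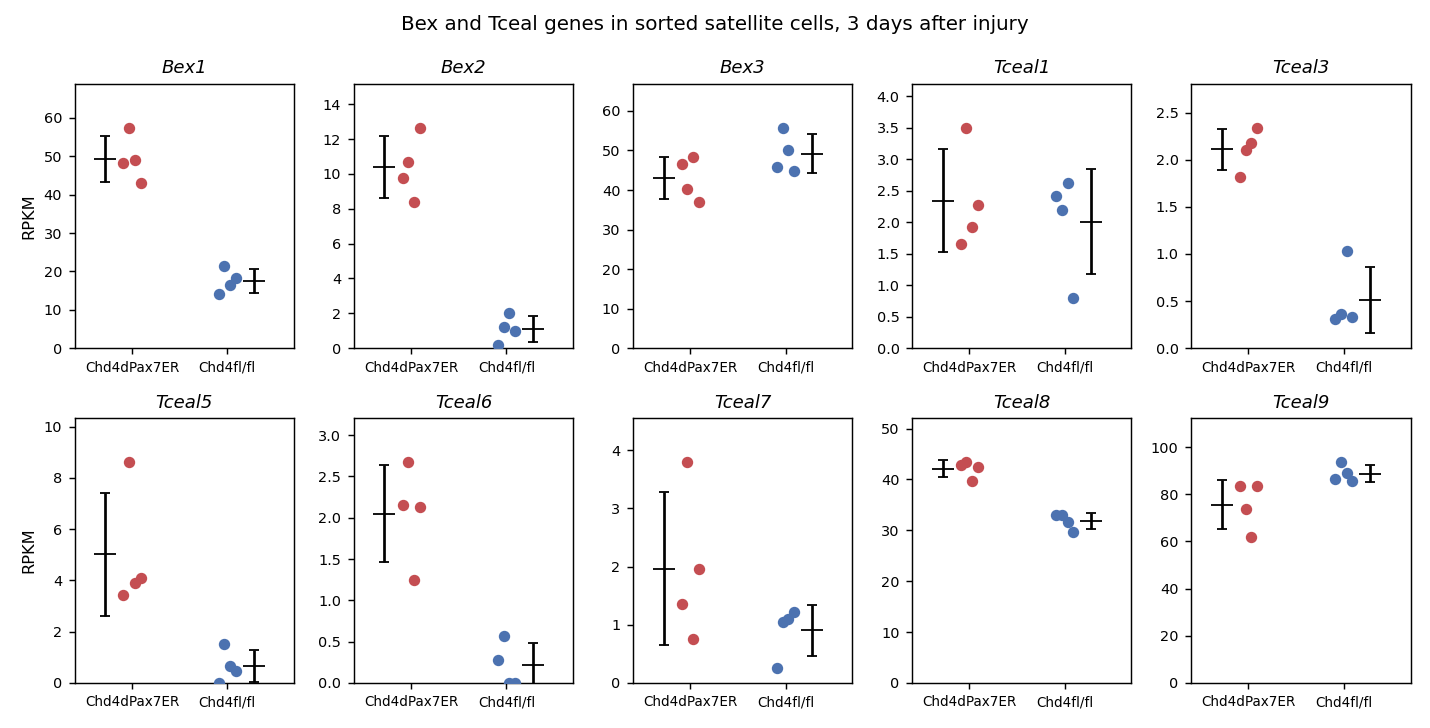
RPKM of the 10 Bex and Tceal genes in each sorted satellite cell library 3 days after injury, with Chd4dPax7ER on the left of each panel and Chd4fl/fl on the right; points are libraries and bars are the mean with its SD (n = 4 each), on axes that start at 0. Bex1, Bex2, Tceal3, Tceal5, Tceal6 and Tceal8 have all 4 Chd4dPax7ER libraries above all 4 Chd4fl/fl libraries, and Tceal9 has all 4 below.

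The Tceal genes Tceal3, Tceal5 and Tceal6 behaved like Bex2. They are close paralogs of one another and similar to TFIIS in part, and their own functions are little known. Tceal5 was at 3.44, 8.60, 3.91 and 4.11 RPKM in Chd4dPax7ER cells, against 0, 1.5, 0.66 and 0.46 RPKM in Chd4fl/fl cells, with a log2 fold change of 2.34 (SE 0.42). Its library 2 was high in both groups, but the numbers do not pair the sorted libraries. Tceal6 was at 2.15, 2.67, 1.25 and 2.13 RPKM in Chd4dPax7ER cells, against 0.28, 0.57, 0 and 0 RPKM in Chd4fl/fl cells, with a log2 fold change of 1.88 (SE 0.31). Tceal3 was between 1.82 and 2.34 RPKM in the 4 libraries of Chd4dPax7ER cells, against 0.31, 0.36, 1.03 and 0.33 RPKM in Chd4fl/fl cells, with a log2 fold change of 1.42 (SE 0.24). In all 3 the groups stood apart, and since the pseudocount of 0.5 is near their Chd4fl/fl levels, these fold changes understate the ratios of the means, which were 7.66, 9.65 and 4.16.

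Tceal8, an abundant member, showed a small and even difference. It measured 42.9, 43.4, 39.8 and 42.6 RPKM in Chd4dPax7ER cells, against 33.0, 33.0, 31.6 and 29.7 RPKM in Chd4fl/fl cells, a log2 fold change of 0.40 (SE 0.06). Tceal9, also known as Wbp5 for its binding to WW domains, was the most abundant member and went the other way, with 83.5, 73.9, 62.0 and 83.4 RPKM in Chd4dPax7ER cells, against 86.6, 93.5, 89.1 and 85.4 RPKM in Chd4fl/fl cells. The Tceal9 ranges came within 2 RPKM of each other, and the log2 fold change was -0.24 (SE 0.10). Tceal7 ranged from 0.76 to 3.79 RPKM in Chd4dPax7ER cells, against 0.26 to 1.21 RPKM in Chd4fl/fl cells, and Tceal1, also called pp21, from 1.66 to 3.50 RPKM in Chd4dPax7ER cells, against 0.79 to 2.62 RPKM in Chd4fl/fl cells. These 2 members overlapped between the groups, with log2 fold changes of 0.73 (SE 0.40) and 0.22 (SE 0.31).

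Over the family, 6 members passed the fit as higher in Chd4dPax7ER cells (adjusted p under 0.05), none as lower, and 4 did not pass. Of all 13344 genes tested, 14.7% passed as higher and 11.9% as lower. That balance turned with the scaling, from 1960 genes higher and 1588 lower here to 1698 and 1960 with TPM scaling and 1751 and 1949 with quantile scaling. Of the same genes, 16.0% had every Chd4dPax7ER library above every Chd4fl/fl library, as 6 members did, and 14.3% had every one below, as Tceal9 did. The median log2 fold change was 1.08 over the members and -0.02 over all genes tested. Nothing is read from these member counts, because this contrast chose the members. All 10 passed the filter on low values, but 5 of them reached 0.5 RPKM in every Chd4fl/fl library, so the other 5 passed with the help of the Chd4dPax7ER libraries.

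In cultured myoblasts Tceal6, Bex2 and Tceal5 had the highest fold changes of the members, and the difference in size between the settings was not tested. Bex2 measured 2.69, 1.04, 1.44 and 1.27 RPKM in AdCRE cultures, against 0.299, 0.140, 0.0435 and 0.257 RPKM in AdGFP cultures, a log2 fold change of 1.58 (SE 0.24). The AdCRE values rest on at least 72, 24, 37 and 35 reads and the AdGFP values on at least 7, 3, 1 and 9 reads, the smallest whole numbers that fit the ratios between libraries. Each AdCRE library was above each AdGFP library, but Bex2 was the scarcest member here in both groups.

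Tceal6 had the largest log2 fold change of the members in culture, 1.72 (SE 0.38). It measured 6.84, 5.38, 3.00 and 9.23 RPKM in AdCRE cultures, against 1.6, 1.4, 0.564 and 2.43 RPKM in AdGFP cultures. Library 3 was the lowest and library 4 the highest in both groups, and the 4 differences within same-numbered libraries ran only from 1.63 to 1.81. Tceal5 measured 7.13, 7.72, 4.87 and 6.56 RPKM in AdCRE cultures, against 3.21, 3.14, 2.02 and 2.65 RPKM in AdGFP cultures, a log2 fold change of 1.12 (SE 0.17). Its groups were apart as well. Tceal3 overlapped between the groups, with 2.53, 3.29, 1.8 and 4.03 RPKM in AdCRE cultures, against 1.14, 1.94, 0.897 and 1.97 RPKM in AdGFP cultures, but each AdCRE library was above the AdGFP library of the same number by 0.63 to 0.88 on the log2 scale.

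**Figure D2:**
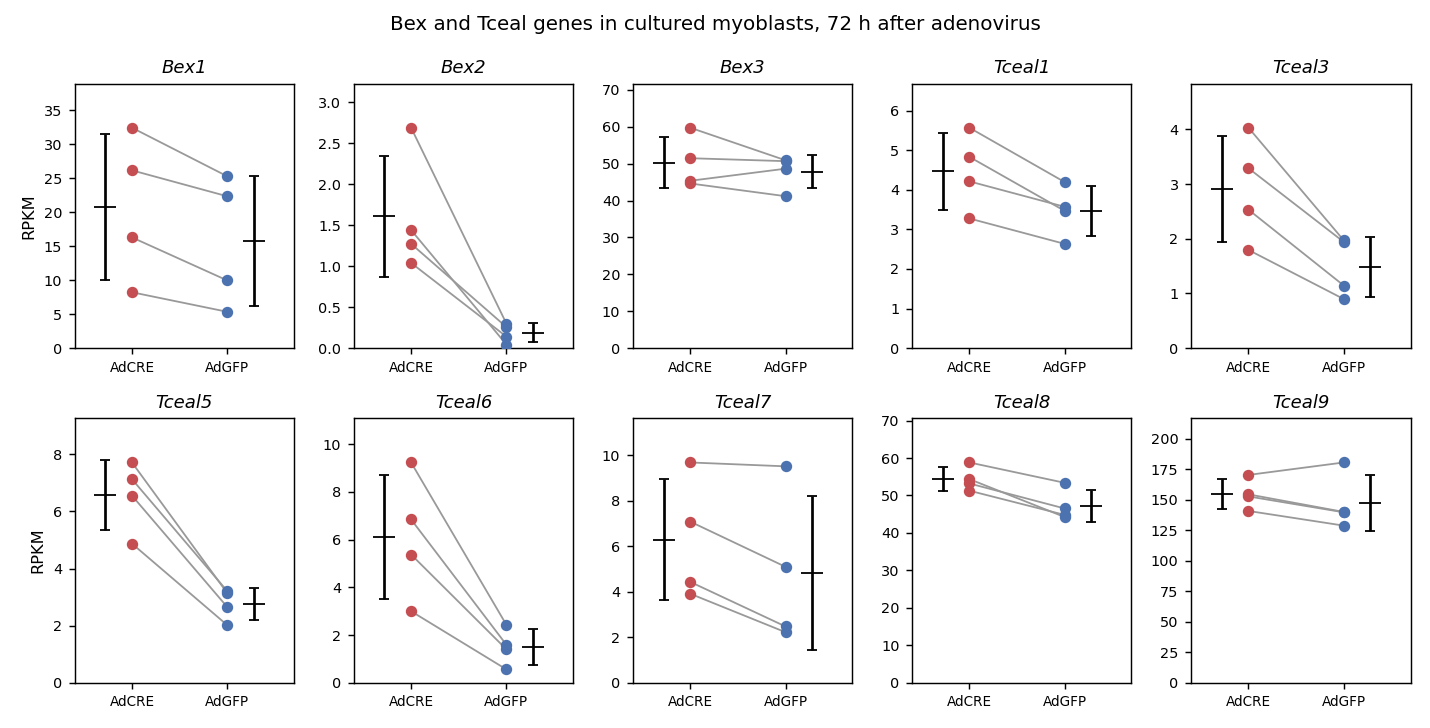
RPKM of the 10 Bex and Tceal genes in each cultured myoblast library 72 h after adenovirus, with AdCRE on the left of each panel and AdGFP on the right; points are libraries, grey lines join libraries with the same number, and bars are the mean with its SD (n = 4 each), on axes that start at 0. 8 members are higher with AdCRE along all 4 lines, while Bex3 and Tceal9 each have 1 line that goes the other way.

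Bex1 shows how far the cultures differed among themselves. It measured 8.22, 32.4, 26.2 and 16.3 RPKM in AdCRE cultures, against 5.34, 25.3, 22.3 and 9.96 RPKM in AdGFP cultures, so that library 2 of both groups had more than 3 times the level of library 1. The group difference (log2 fold change 0.46) had an SE of 0.56 across libraries and of 0.08 once the number was a block in the fit. Tceal7 had the same shape, with 4.44, 9.68, 7.08 and 3.91 RPKM in AdCRE cultures, against 2.48, 9.51, 5.10 and 2.22 RPKM in AdGFP cultures. In both genes libraries 2 and 3 were high in both groups. These are the cultures that carried transcripts of the Y chromosome, such as Ddx3y at 20.9 to 25.99 RPKM, while libraries 1 and 4 had Xist, the X inactivation RNA, at 78.9 to 96.5 RPKM. The cultures also differed in Myog, a differentiation gene of muscle, whose libraries had the same order as those of Bex1 in both groups. Myog was at 313, 774, 550 and 522 RPKM in AdCRE cultures, against 208, 612, 480 and 320 RPKM in AdGFP cultures. Whether either of these differences between cultures has a part in the Bex1 and Tceal7 levels was not tested.

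The remaining members had smaller fold changes in culture. Tceal8 ranged from 51.3 to 58.8 RPKM in AdCRE cultures, against 44.3 to 53.4 RPKM in AdGFP cultures, with a log2 fold change of 0.20 (SE 0.08). Tceal1 ranged from 3.28 to 5.57 RPKM in AdCRE cultures, against 2.63 to 4.19 RPKM in AdGFP cultures (log2 fold change 0.32, SE 0.18). Bex3 averaged 50.3 ± 7.01 RPKM in AdCRE cultures and 47.9 ± 4.57 RPKM in AdGFP cultures (SD, n = 4 each), and Tceal9 averaged 154.5 ± 12.2 RPKM in AdCRE cultures and 147 ± 22.8 RPKM in AdGFP cultures. Their log2 fold changes were 0.07 (SE 0.11) and 0.08 (SE 0.12). With the library number as a block, their SEs were 0.06 and 0.05, each below its fold change. That block lowered the SE of every member in culture, to between 0.04 (Tceal8) and 0.16 (Bex2), with 0.05 for Tceal5 and 0.06 for Tceal6.

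Bex2 and Tceal5 passed the fit as higher in AdCRE cultures, and 8 members did not pass. Bex2 reached 0.5 RPKM in 0 of 4 AdGFP libraries and in all 4 AdCRE libraries. It therefore entered the fit through the AdCRE libraries, the group where it is high. Of all 13567 genes tested in culture, 0.516% passed as higher and 0.140% as lower. In addition, 3.80% had every AdCRE library above every AdGFP library, as 3 of the members did, and 6.21% had every one below. With the replicate number as a block, 8 members passed as higher, all but Bex3 and Tceal9, beside 17.5% of all genes as higher and 18.7% as lower. The same 8 members were higher in all 4 same-numbered comparisons, as were 25.1% of all genes tested, and 27.2% were lower in all 4. The median log2 fold change was 0.47 over the members and -0.01 over all genes. The share of called genes that were higher was 78.7% without the block and 48.3% with it.

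The members differed widely in abundance. In AdGFP cultures the order ran from Tceal9 at 147 RPKM through Bex3 at 47.9, Tceal8 at 47.2 and Bex1 at 15.7 to Tceal7, Tceal1, Tceal5, Tceal6, Tceal3 and Bex2, the last at 0.185 RPKM. Among neighbours in this order, Bex3 and Tceal8, Tceal7 and Tceal1, and Tceal6 and Tceal3 differed by less than the larger of their SDs. In Chd4fl/fl cells the first 4 were the same, Tceal9 at 88.7, Bex3 at 49.2, Tceal8 at 31.8 and Bex1 at 17.6 RPKM, with no overlap between neighbours. The other 6 all averaged 2.01 RPKM or less there, and the neighbours from Bex2 down to Tceal6 differed by less than the larger SD.

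In Chd4dPax7ER cells Bex1 came second at 49.4 RPKM, after Tceal9 at 75.7, and Bex2 stood next after the 4 abundant members at 10.4 RPKM. The library ranges of Bex1 and Bex2 there overlapped those of the next lower members, Bex3 and Tceal5. In AdCRE cultures Bex2 stayed last at 1.61 RPKM. The abundant Bex3, Tceal8 and Tceal9 made up most of the family's summed RPKM. The 10 genes summed to 234 ± 12.7 RPKM in Chd4dPax7ER cells and 193 ± 13.3 RPKM in Chd4fl/fl cells, and to 308 ± 14.4 RPKM in AdCRE cultures and 272 ± 20.7 RPKM in AdGFP cultures (SD, n = 4 each). Without those 3 genes the sums were 73.3 ± 10.4 RPKM in Chd4dPax7ER cells and 22.97 ± 4.48 RPKM in Chd4fl/fl cells, and 48.7 ± 11.7 RPKM in AdCRE cultures and 30.0 ± 11.9 RPKM in AdGFP cultures.

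**Figure D3:**
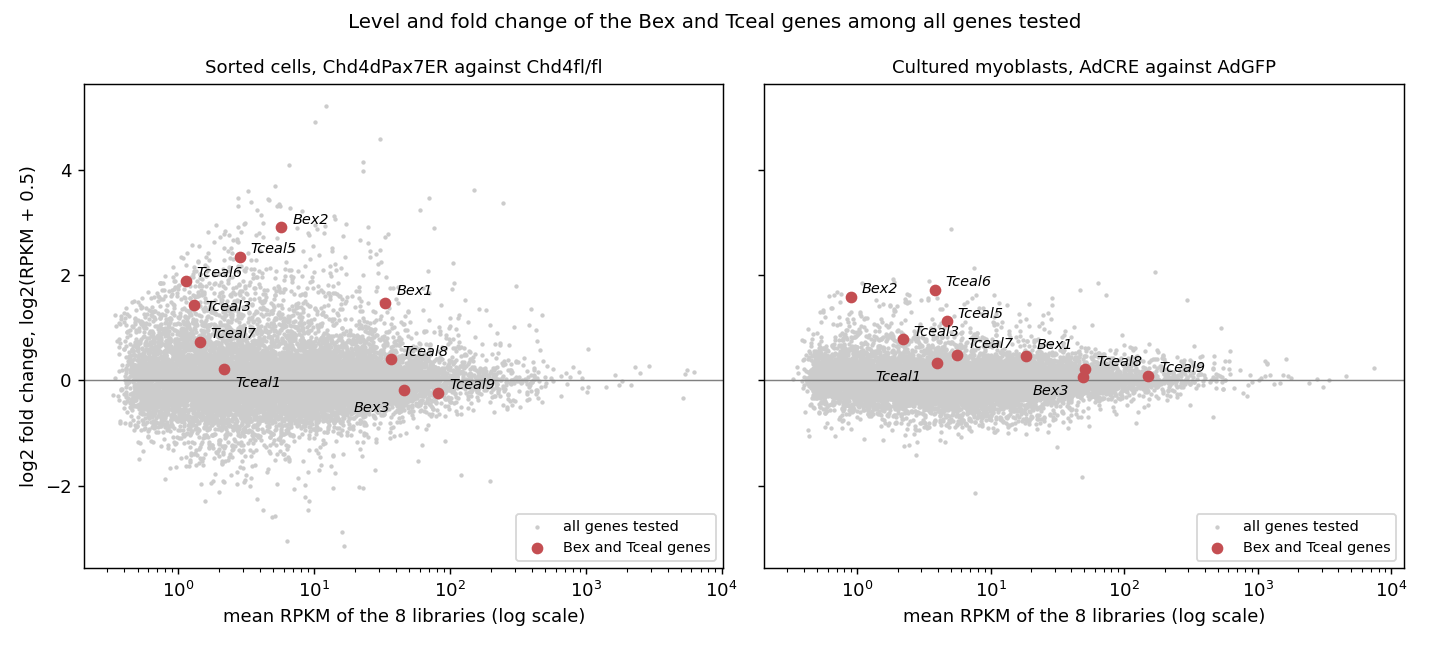
Mean RPKM of the 8 libraries (x axis, log scale) against the log2 fold change of RPKM + 0.5 (y axis) for every gene tested, in grey, and for the 10 Bex and Tceal genes, in red, in sorted cells (left) and cultured myoblasts (right). Bex3 and Tceal9 lie near 0 in both panels, Bex2, Tceal5 and Tceal6 are the 3 highest of the red points in both, and Bex1 is high among abundant genes in sorted cells.

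Bex2 and Bex3, which were unlike in fold change, have promoters that are alike in part. RefSeq promoter windows (GRCm38.p6, 250 bases before to 50 after the annotated start) were found for all 10 members. Among the 45 pairs of members, Bex2 and Bex3 shared the longest identical run, of 162 bases, which was in no other gene's window among 27025 genes; the longest run of any other pair was 18 bases. The 250 bases before each start are shown because Bex2 differed strongly between the groups and Bex3 did not. Bex2 is on the minus strand (window chrX:136068237-136068486) and Bex3 on the plus strand (chrX:136270003-136270252), and capitals mark the shared run.
Bex2: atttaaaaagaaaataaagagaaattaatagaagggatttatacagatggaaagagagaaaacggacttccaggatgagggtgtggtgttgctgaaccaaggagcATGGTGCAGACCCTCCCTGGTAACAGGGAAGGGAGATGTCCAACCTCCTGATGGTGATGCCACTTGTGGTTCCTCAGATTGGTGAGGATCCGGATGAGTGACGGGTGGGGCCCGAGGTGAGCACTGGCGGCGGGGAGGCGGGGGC
Bex3: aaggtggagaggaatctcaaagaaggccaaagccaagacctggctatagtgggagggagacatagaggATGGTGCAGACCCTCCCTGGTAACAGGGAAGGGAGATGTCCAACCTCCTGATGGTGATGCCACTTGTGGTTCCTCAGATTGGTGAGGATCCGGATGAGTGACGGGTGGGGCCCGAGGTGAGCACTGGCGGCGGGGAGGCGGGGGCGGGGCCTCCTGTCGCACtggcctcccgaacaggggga
In Bex2 the run begins 145 bases before the start and crosses it, and in Bex3 it begins 182 bases before the start and ends upstream of it. The 2 genes with this run stood at 10.4 RPKM (Bex2) and 43.0 RPKM (Bex3) in Chd4dPax7ER cells, and at 1.10 RPKM (Bex2) and 49.2 RPKM (Bex3) in Chd4fl/fl cells. Whether the run or the bases around it have a part in these levels was not tested.

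Bex1 shares a run of at least 271 bases with the window of Bex4, a family gene that was not among the 10 members. This run begins 221 bases before the Bex1 start and reaches the end of its window, and it was in no other gene's window. Its part in the levels of these genes was not tested. The Bex1 stretch (minus strand, chrX:136215514-136215763) is shown because Bex1 changed most among the abundant members in sorted cells, with capitals for the bases shared with Bex4.
Bex1: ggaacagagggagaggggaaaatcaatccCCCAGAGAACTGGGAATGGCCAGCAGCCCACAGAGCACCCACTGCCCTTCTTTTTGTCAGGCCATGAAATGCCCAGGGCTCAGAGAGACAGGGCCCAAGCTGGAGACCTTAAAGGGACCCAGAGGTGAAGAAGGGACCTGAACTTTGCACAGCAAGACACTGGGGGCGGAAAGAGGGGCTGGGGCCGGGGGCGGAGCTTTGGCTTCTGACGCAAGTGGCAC
Bex4 rose in sorted cells, with 2.68, 4.62, 4.61 and 5.67 RPKM in Chd4dPax7ER cells, against 1.7, 0.38, 0.40 and 0 RPKM in Chd4fl/fl cells. Its log2 fold change was 2.30 (SE 0.41, limma adjusted p = 0.00406), and it was higher in all 4 Chd4dPax7ER libraries than in any Chd4fl/fl library. Only 1 of 4 Chd4fl/fl libraries reached the filter of 0.5 RPKM, so Bex4 entered the fit through the Chd4dPax7ER libraries, the group where it is high. In culture Bex4 was below the filter, at 0.161 to 0.504 RPKM in AdCRE libraries, against 0 to 0.422 RPKM in AdGFP libraries, while Bex1 stood at 5.34 to 32.4 RPKM in the same 8 cultures. Because the shared run covers the beginning of both transcripts, some reads fit both genes, and the sources used here do not say how they were counted. Bex6, a family gene on chromosome 16, was listed at 0 in every library.

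Known promoter motifs were looked for in the same windows, on both strands. The E-box CANNTG, bound by MyoD and its relatives among many factors, was in the windows of all 10 members and of 75.0% of all genes. The GC box GGGCGG was in 7 of 10 and in 38.2% of all genes, and CCAAT in 5 of 10 and 41.1%. TATAAA was found only in the Bex2 window among the members, against 15.7% of all genes, and TGACGTCA in none, against 2.03%. The 7 members with the GC box were Bex1, Bex2, Bex3, Tceal3, Tceal6, Tceal8 and Tceal9. Whether any of these motifs has a part in the members' levels was not tested. A match of letters is not a bound site.

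The members lie within 1501.2 kb of the X chromosome, from Tceal6 to Tceal1 (chrX:135208686-136709873, GRCm38.p6), and 9 of them within the 643.3 kb from Bex2 to Tceal1. Members with large and small fold changes in sorted cells lie in the same stretch: Tceal5 and then Bex1 follow Tceal8, and Bex3 and Tceal9 lie next to each other between Tceal7 and Tceal3. RefSeq lists 65 other genes in the span, of which 20 code for proteins and 8 were tested in each setting, the sets differing in part. In sorted cells 5 of 8 passed as higher (Gprasp1, Gprasp2, Bhlhb9, Arxes2 and Bex4) and none as lower. Of all genes tested there, 14.7% passed as higher and 11.9% as lower. Arxes2 lost its call in 8 of 17 alternatives. In culture none of 8 passed without the block in the limma fit, and 4 were higher at an unadjusted p under 0.05. With the block 6 passed as higher, beside 17.5% of all genes tested. Morf4l2, the next abundant gene beyond Tceal1, had a log2 fold change of -0.15 (adjusted p = 0.123) in sorted cells and 0.08 (adjusted p = 0.71) in culture by the same limma fits.

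**Figure D4:**
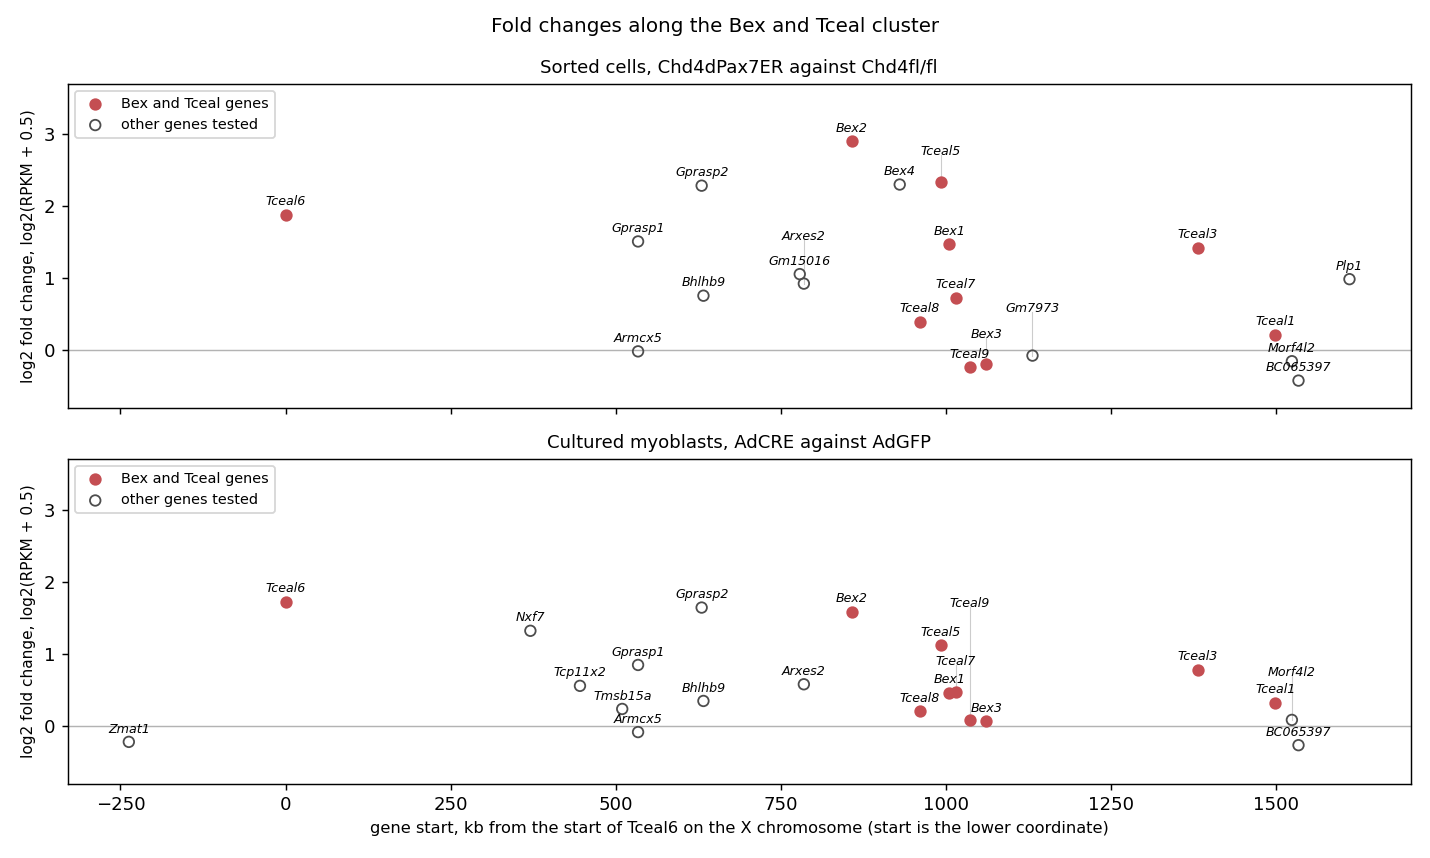
Log2 fold change of RPKM + 0.5 (y axis) of each gene tested along the Bex and Tceal cluster, by the distance of its lower coordinate from that of Tceal6 in kb (x axis), in sorted cells (above) and cultured myoblasts (below); red points are Bex and Tceal genes and open points other genes tested. Bex3 and Tceal9 lie near 0 in both panels, Gprasp1 and Gprasp2 are high on the Tceal6 side, and Morf4l2 just beyond Tceal1 is near 0.

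Armcx and Gprasp genes are relatives of each other that border the Bex and Tceal genes on the X chromosome and share a conserved promoter motif with many of them. Their list was also chosen with earlier results of these data known, so its p-values are not independent support. Gprasp1, which sorts G protein-coupled receptors to degradation, was at 22.1, 28.3, 25.95 and 26.7 RPKM in Chd4dPax7ER cells, against 8.15, 9.47, 8.85 and 8.31 RPKM in Chd4fl/fl cells. Its log2 fold change was 1.51 (SE 0.10, limma adjusted p = 2.83e-05). Gprasp2 was at 4.75, 6.16, 6.36 and 6.80 RPKM in Chd4dPax7ER cells, against 0.87, 0.63, 0.73 and 1.13 RPKM in Chd4fl/fl cells, with a log2 fold change of 2.29 (SE 0.17, limma adjusted p = 7.45e-05). Both were higher in every Chd4dPax7ER library than in any Chd4fl/fl library. Bhlhb9, now named Gprasp3, averaged 24.4 ± 1.25 RPKM in Chd4dPax7ER cells and 14.3 ± 1.81 RPKM in Chd4fl/fl cells, with a log2 fold change of 0.76 (SE 0.10, limma adjusted p = 0.000861).

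In all, 3 of the 10 genes of this list rose in sorted cells and none fell. The 7 that did not pass included Armcx2, the most abundant, at 73.7 ± 3.54 RPKM in Chd4dPax7ER cells and 70.1 ± 0.827 RPKM in Chd4fl/fl cells. The list's median log2 fold change was 0.22. In culture none of the 10 passed in the limma fit, with 6 higher and 1 lower at an unadjusted p under 0.05, and the list's median was 0.36. There Gprasp2 averaged 3.81 ± 1.22 RPKM in AdCRE cultures and 0.910 ± 0.516 RPKM in AdGFP cultures (log2 fold change 1.64, limma adjusted p = 0.0558, and 0.00016 with the replicate block). With the block, 8 of the 10 passed as higher and 1 (Armc10, not X-linked) as lower. The reference overlaps Gprasp2 with Bhlhb9 and gives Gprasp1 the same start as Armcx5, so reads in the overlaps cannot be assigned to 1 gene with certainty, and the same holds for Bex1 and Tceal1, which each overlap another annotated gene.

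In sorted cells the rest of the X chromosome was called at shares like those of other chromosomes. Without the 10 members, 15.5% of 472 tested X-linked genes passed as higher in Chd4dPax7ER cells and 13.8% as lower, beside 15.2% and 12.1% on the other chromosomes. In culture 3 of 479 X-linked genes passed as higher in AdCRE cultures and none as lower, and with the replicate block 20.0% passed as higher and 13.2% as lower, beside 17.8% and 19.3% on the other chromosomes. Y-linked transcripts were present in 1 of 4 Chd4dPax7ER libraries and 1 of 4 Chd4fl/fl libraries, and in 2 of 4 AdCRE libraries and 2 of 4 AdGFP libraries. Within the libraries that lacked them, a split chosen after seeing the data, the median member log2 fold change was 1.03 in sorted cells and 0.67 in culture. It was 0.32 in the cultures that had them, where Bex2 (1.55), Tceal5 (1.13) and Tceal6 (1.67) remained the highest members.

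The Mage genes are another family that grew in placental mammals, mostly on the X chromosome away from this cluster. Its member Maged2, an adaptor of ubiquitin ligases, rose in both settings: it averaged 32.0 ± 8.76 RPKM in Chd4dPax7ER cells and 11.6 ± 2.68 RPKM in Chd4fl/fl cells (log2 fold change 1.42, limma adjusted p = 0.00155), and 56.5 ± 5.50 RPKM in AdCRE cultures and 27.7 ± 3.59 RPKM in AdGFP cultures (log2 fold change 1.02, limma adjusted p = 0.00958). Of 6 Mage genes tested, 2 rose (Maged2 and Mageh1) and 1 fell (Nsmce3, an autosomal gene) in sorted cells, where Mageh1 lost its call in 5 and Nsmce3 in 9 of 17 alternatives. In culture Maged2 passed without the block, a call lost in both fits split by Y-linked transcripts, and Maged2 and Mageh1 passed as higher and Nsmce3 as lower with it. Maged1, a p75 neurotrophin receptor partner like Bex3, averaged 108 ± 8.96 RPKM in Chd4dPax7ER cells and 110 ± 8.84 RPKM in Chd4fl/fl cells.

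The genes named for the same functions as the family moved in a mixed way. Of 25 tested TFIIS and elongation factor genes, 6 rose and 1 fell in sorted cells, with a list median of -0.01. Tcea3, a TFIIS form known from muscle, was among the risers, at 5.64 ± 2.64 RPKM in Chd4dPax7ER cells and 2.05 ± 0.409 RPKM in Chd4fl/fl cells (SE 0.34, log2 fold change 1.15, limma adjusted p = 0.0336, lost in 8 of 17 alternatives), while Tcea1, the general form, was at 21.2 ± 1.68 RPKM in Chd4dPax7ER cells and 23.5 ± 1.06 RPKM in Chd4fl/fl cells. Of 13 tested genes of p75 neurotrophin receptor signalling, 3 rose (Sort1, Sorcs2 and Ntf3) and 1 fell (Ywhae) in sorted cells. The call was lost in 11 of 17 alternatives for Ywhae and in 7 of 17 for Ntf3. Sort1, the sortilin co-receptor of p75, was at 22 ± 3.20 RPKM in Chd4dPax7ER cells and 6.65 ± 0.932 RPKM in Chd4fl/fl cells (log2 fold change 1.65, limma adjusted p = 0.000102). The receptor gene Ngfr was at 19.3 ± 5.58 RPKM in Chd4dPax7ER cells and 26.6 ± 7.12 RPKM in Chd4fl/fl cells (limma adjusted p = 0.174).

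REST, a repressor of neuronal genes that recruits CoREST and histone deacetylases, was at 19.5 ± 0.795 RPKM in Chd4dPax7ER cells and 18.9 ± 1.64 RPKM in Chd4fl/fl cells. Of the 9 genes of REST and its corepressors, 2 rose (Rcor2 and Hdac1) and 2 fell (Kdm1a and Rcor3) in sorted cells, with the call lost in 5 of 17 alternatives for Hdac1 and in 1 for Kdm1a. In culture no gene of the REST list or of the p75 list passed the limma fit, and at an unadjusted p under 0.05 the counts were 0 for the REST list and 2 lower for the p75 list. In culture 1 elongation factor gene passed, again Tcea3 (log2 fold change 0.67, limma adjusted p = 0.0196, lost in 10 of 18 alternatives). With the replicate block, 1 gene of the REST list passed as higher, 2 of the p75 list as higher and 4 as lower, and 3 elongation factor genes as higher and 8 as lower.

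Genes of other cell types moved with the Bex and Tceal genes in the sorted cells, and their part in the family's levels was not tested. Schwann cell markers rose in 5 of 6 tested genes and summed to between 87.1 and 152 RPKM in Chd4dPax7ER cells, against 41.2 to 60.0 RPKM in Chd4fl/fl cells, with Sox10 at 3.13 ± 0.926 RPKM in Chd4dPax7ER cells and 0.175 ± 0.132 RPKM in Chd4fl/fl cells. Neuronal markers rose in 4 of 6 tested genes and summed to between 37.8 and 57.0 RPKM in Chd4dPax7ER cells, against 11.5 to 17.5 RPKM in Chd4fl/fl cells, but Elavl4, Snap25 and Syt1 were listed at 0 in every Chd4dPax7ER library. Sox10, S100b, Elavl3 and Nefm averaged under 0.5 RPKM in Chd4fl/fl cells and entered the fit with the help of the Chd4dPax7ER libraries. Fibroblast markers rose in 4 of 7 and summed to between 227 and 385 RPKM in Chd4dPax7ER cells, against 89.0 to 118 RPKM in Chd4fl/fl cells. Differentiation genes of muscle rose in 16 of 23 and myofibre genes in 8 of 9, and of 16 satellite cell genes 5 rose, such as Myod1 and Sdc3, and 2 fell, Pax7 and Fgfr4. Pax7 was at 11.5 ± 2.94 RPKM in Chd4dPax7ER cells and 21.3 ± 6.43 RPKM in Chd4fl/fl cells, a call lost in 5 of 17 alternatives. Itga7, the alpha7-integrin used in the sort, was at 280.0 ± 10.4 RPKM in Chd4dPax7ER cells and 218 ± 19.8 RPKM in Chd4fl/fl cells, and Ptprc, which encodes CD45, was at 0.410 ± 0.140 RPKM in Chd4dPax7ER cells and 0.323 ± 0.136 RPKM in Chd4fl/fl cells. Leukocyte markers rose in 1 of 9 tested genes and endothelial markers in 1 of 2.

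In culture the Schwann cell gene Sox10 was near 0, averaging 0.00311 RPKM in AdCRE cultures and 0.00356 RPKM in AdGFP cultures, and the sums of its list overlapped, from 85.5 to 139 RPKM in AdCRE cultures and from 73.4 to 121 RPKM in AdGFP cultures. The neuronal list summed to between 26.9 and 45.4 RPKM in AdCRE cultures, against 10.7 to 26.8 RPKM in AdGFP cultures, with Rbfox3 and Elavl4 at 0 in every AdCRE library, and none of its 6 tested genes passed the limma fit, with 2 higher at an unadjusted p under 0.05 and 3 passing as higher with the replicate block. No differentiation gene passed in culture, while 20 of 23 did so as higher with the replicate block, and their sums overlapped between the groups, from 2860 to 9383 RPKM in AdCRE cultures and from 2172 to 7658 RPKM in AdGFP cultures. Of 3 tested fibroblast genes, Ly6a and Col1a1 passed as higher in culture, with the call lost in 4 of 18 alternatives for Ly6a and in 9 of 17 for Col1a1. Col1a1 averaged 1.28 ± 0.506 RPKM in AdCRE cultures and 0.0626 ± 0.0225 RPKM in AdGFP cultures, so it entered the fit through the AdCRE libraries. Of 13 satellite cell genes none passed in the limma fit in culture, with 1 lower at an unadjusted p under 0.05, and with the block 1 passed as higher and 3 as lower.

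Within a group, the members did not move together as one. Over the 8 libraries of a setting, with each value taken as its deviation from its group mean, the 45 correlations between members had a median of 0.06 in culture (from -0.86 to 0.94) and 0.20 in sorted cells (from -0.43 to 0.89). The strongest were Tceal1 with Tceal6 in culture (0.94) and Bex1 with Tceal5 in sorted cells (0.89), and Bex3 with Tceal7 was the lowest in culture (-0.86). The medians and some of the extremes depended on the scaling. With TPM scaling the medians were 0.24 in culture and 0.11 in sorted cells. The lowest pair in culture was then Bex1 with Tceal8 (-0.95), and the strongest in sorted cells was Tceal6 with Tceal8 (0.90). These are descriptions over few libraries, and in culture same-numbered libraries deviated together over all genes.

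The genes whose levels followed the family mean most closely over the 8 libraries, by Pearson's r on scaled log2 values, were Fgf11 (0.99), Scml4 (0.98), Ndufv3 (0.98), Fam53b (0.97) and Rps6kb2 (0.97) in sorted cells. In culture they were Chst15 (0.99), Dact3 (0.99), Mindy2 (0.98), Lrrn1 (0.98) and Castor2 (0.98). No gene was in both sets, and both r and the family mean hold the group difference. Lrrn1, a membrane protein with leucine-rich repeats, was at 409 ± 34.2 RPKM in AdCRE cultures and 261 ± 28.3 RPKM in AdGFP cultures. In sorted cells Lrrn1 went the other way. Its log2 fold change there was between -0.79 and -0.54 over 17 alternatives, none of which lost its call as lower. Chst15, Dact3, Mindy2 and Castor2 stayed above 0 in sorted cells under the same alternatives. Fgf11, an intracellular member of the fibroblast growth factor family, was at 31.9 ± 2.49 RPKM in Chd4dPax7ER cells and 22.7 ± 2.60 RPKM in Chd4fl/fl cells.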

How the data were processed

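Expression was taken from 2 tables of RPKM values that the authors deposited, 1 for the 8 cultured and 1 for the 8 sorted libraries, with Ensembl identifiers and gene symbols. Per the submitters' processing notes, HISAT2 2.1.0 is the aligner named, beside cutadapt 1.18, and GRCm38 and mm10 are the builds. The sources used here do not say which tools made these tables, how reads were counted, whether strand was used or how reads that fit several genes were treated. Such reads, and the gene lengths used, affect the close paralogs among the Bex and Tceal genes most. The values of the sorted libraries are rounded to hundredths.

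Genes with at least 0.5 RPKM in at least 4 of the 8 libraries of a table were tested as log2(RPKM + 0.5) in limma 3.58.1 (R 4.3.3, trended moderated variances), AdCRE against AdGFP and Chd4dPax7ER against Chd4fl/fl. Benjamini-Hochberg adjustment ran over every gene in a fit, with 0.05 as the threshold for passing. The fit was tested on simulated data. Fold changes on this scale understate changes of low genes. Levels were not compared across the tables.

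The members and the 15 gene lists were chosen with earlier results of these data known, and 1 gene of the neurotrophin receptor list is not reported here and is left out of its counts. All members are named, as are the Armcx, Gprasp, other Bex and Mage genes, up to 4 genes a direction of longer lists, tested genes in or next to the cluster, and in each table the 5 genes with the highest correlation with the mean of the scaled members. Genes named only to show a cell type, a flat level or a spread between cultures (Sox10, Rest, Ngfr, Tcea1, Myog) were chosen after their values were seen.

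Deviations of same-numbered libraries from their group means correlated at 0.711 to 0.856 in culture, so numbers pair those libraries, as the transcripts of the sex chromosomes do, and at -0.0967 to 0.0499 in sorted cells, so they do not. Alternatives were the pseudocount, the filter, TPM and quantile scaling, untrended variances, the replicate block, leaving out each library, and, added after seeing the data, fits split by Y-linked transcripts (Ddx3y above 1 RPKM).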

Additional observations from a re-analysis of the deposited data

Results flagged for a closer look

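Of the 44 groups of 4 libraries formed by the 10 members and Bex4, 2 held a library far from the other 3 by Dixon's test, and chance alone flags about 5% of groups. Tceal5 in Chd4dPax7ER replicate 2 was the highest of its group at 8.60 RPKM, while the other 3 libraries lay at 3.44 to 4.11 RPKM. Tceal3 in Chd4fl/fl replicate 3 was the highest of its group at 1.03 RPKM, while the other 3 libraries lay at 0.31 to 0.36 RPKM.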

How the results depend on the processing

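No member that passed in either setting changed direction under any alternative. In sorted cells the same 6 members passed as higher under all 17 alternatives, and Tceal9 also passed as lower under TPM and quantile scaling. Tceal1 fell below 0 there without Chd4fl/fl replicate 4 (-0.07). In culture, where 2 members passed, no member did without the filter on low values, Tceal5 alone did under quantile scaling, and leaving out a library left 0 or 1. Bex3 fell below 0 in culture without AdCRE replicate 4 or AdGFP replicate 2. The replicate block raised the genes called in culture to 4907 (2371 higher, 2536 lower), against 89 without it (70 and 19), and 12 genes were lower with no filter. In sorted cells it changed no member's call. Leaving out 1 library gave 16 to 44 genes called in culture, 14 to 40 higher and 2 to 4 lower, with a median member log2 fold change of 0.26 to 0.80, the highest without AdGFP replicate 2. In sorted cells it gave 1034 to 1436 genes lower. In fits split by Y-linked transcripts, culture had 0 genes called by limma without them (0 higher, 0 lower, 547 at an unadjusted p under 0.05) and 2 with them (1 higher, 1 lower), on 2 libraries a group, and sorted cells had 2315 without them, 923 of them lower. The cause of these shifts was not tested beyond fewer libraries in each fit. Fold changes of members near the pseudocount depended on it: Tceal6 in sorted cells ran from 1.34 with a pseudocount of 1 to 3.21 with 0.1. Gprasp1, Gprasp2, Bhlhb9, Bex4 and Maged2 kept their calls in sorted cells under all 17 alternatives, while Arxes2 lost its call in 8, Nsmce3 in 9 and Mageh1 in 5. Depth is unknown in sorted cells, so counting error at their lowest values could not be given.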
